A study of Arabidopsis thaliana with 15 samples.

Results

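The genes described are 35 Arabidopsis thaliana loci that make or break down chlorophyll, taken by locus identifier from a fixed list. The list runs along tetrapyrrole synthesis from HEMA1 to CAO and CHLP, and adds the regulator FLU, the haem branch (FC1, FC2 and HO1) and chlorophyll breakdown (NYC1, SGR1, SGR2, PPH, PAO, RCCR and HCAR). The table lists 33201 entries, 286 of which join several genes, and 34 members have an entry of their own. PAO appears only in an entry that joins it with its neighbour AT3G44870. All 34 genes were among the 19868 that the authors tested. The RNA came from whole 14-day-old seedlings, 3 libraries of the mutant syd-5 and 3 of wild type (WT), both in the Col-0 background and grown on plates of MS medium in long days. SYD encodes SPLAYED, a SWI/SNF chromatin remodeller, and the mutant is represented by 1 allele. The other 9 of the 15 libraries are chromatin immunoprecipitations and inputs and were not analysed here.

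Chlorophyll and haem share a trunk that begins with glutamyl-tRNA and ends at protoporphyrin IX. There the path divides: magnesium chelatase inserts magnesium and commits the molecule to chlorophyll, while ferrochelatase inserts iron and makes haem. The magnesium branch then methylates the ring, closes the fifth ring, reduces it and attaches a phytol tail. In ageing or shaded leaves chlorophyll b is turned back to chlorophyll a, a STAY-GREEN protein removes magnesium, PPH cuts off phytol, and PAO and RCCR open the ring to colourless products. Free intermediates of synthesis and breakdown are phototoxic, so flux through the steps is tightly controlled in green tissue.

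Each gene had 1 expression value per genotype, which the authors had combined from the libraries. The values were read as FPKM (fragments scaled for transcript length and for the number of fragments mapped), since the header names no unit. No value per library, standard deviation or depth is given, so the spread between libraries cannot be set beside a value. The labels do not say whether the 3 libraries of a genotype came from separately grown plants, and the spread behind the p-values may be technical. A gene is called higher or lower in syd-5 where q in the authors' deposited table was at most 0.05. The smallest p there, 5e-05, is shared by 2831 genes and gives a q of 0.000351, so q does not rank the 10 called members that hold it. SYD itself fell to 2.53 FPKM in syd-5, against 13.1 FPKM in WT. Over all genes FPKM summed to 948154 in syd-5 and 865406 in WT, a log2 ratio of 0.13, while the median log2 difference of tested genes was -0.02.

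Most synthesis genes rose and several breakdown genes fell in syd-5. Of the 34 members, 18 were called higher, 4 were called lower and 12 were not called. Of all tested genes 32.1% were called, 14.1% as higher and 18.0% as lower in syd-5. Among the 7480 tested genes whose 2 values averaged 20 FPKM or more, a level that most members exceed, 20.5% were higher and 15.1% were lower. The 18 that rose spanned log2 differences of 0.40 to 0.84, around a median of 0.51, beside a median of 0.63 over all genes called higher. The 4 that fell (FC1, SGR1, SGR2 and PPH) spanned -1.04 to -2.61, beside a median of -0.92 over all genes called lower. Among the called members the falls were thus larger than the rises, and the medians over all called genes differ in the same direction. In bulk seedlings, more or fewer cells of a type and more or less RNA per cell cannot be told apart.

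**Figure D1:**
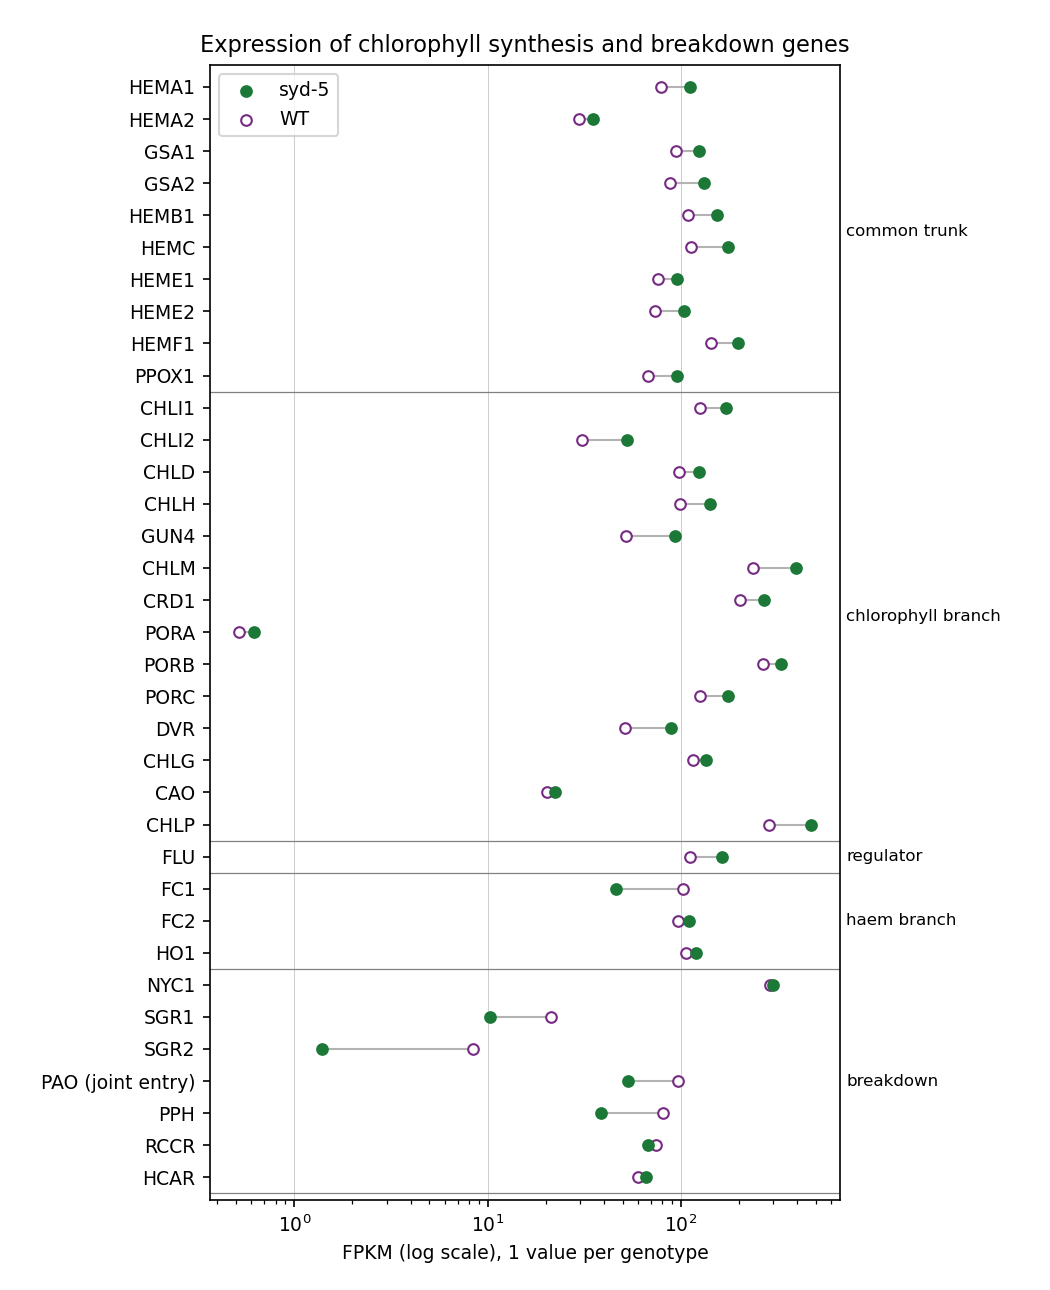
FPKM of each member on a log axis, with 1 filled point for syd-5 and 1 open point for WT, grouped by role; PAO is the joint entry with AT3G44870. The syd-5 point lies to the right of the WT point for all 24 genes of the trunk and chlorophyll branch and to the left for FC1, SGR1, SGR2, PPH, RCCR and the joint entry.

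In the trunk, 8 of 10 genes rose and 0 fell, with a median log2 difference of 0.51. The first committed step reduces glutamyl-tRNA and sets the supply of 5-aminolevulinic acid. HEMA1 (AT1G58290), the main glutamyl-tRNA reductase gene of green tissue, reached 111.9 FPKM in syd-5, against 78.7 FPKM in WT. Its isogene HEMA2 (AT1G09940) was at 35.3 FPKM in syd-5 and 29.9 FPKM in WT and was not called (q = 0.189 in the authors' deposited table). The aminomutase genes that complete 5-aminolevulinic acid both rose. GSA1 (AT5G63570) had 124.6 FPKM in syd-5 and 94.1 FPKM in WT, and GSA2 (AT3G48730) had 131.9 FPKM in syd-5 and 88.2 FPKM in WT.

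Most genes for the steps from 5-aminolevulinic acid to protoporphyrin IX also rose. HEMB1 (AT1G69740), the 5-aminolevulinic acid dehydratase gene, had 154.7 FPKM in syd-5 against 108.3 FPKM in WT. HEMC (AT5G08280) encodes porphobilinogen deaminase, which links pyrroles into a chain, and had 174.5 FPKM in syd-5 against 113.3 FPKM in WT. At a log2 difference of 0.62, HEMC was the highest of the trunk. Of the uroporphyrinogen decarboxylase genes, HEME2 (AT2G40490) rose to 104.4 FPKM in syd-5, against 73.5 FPKM in WT. HEME1 (AT3G14930) stood at 96.0 FPKM in syd-5 and 76.4 FPKM in WT and missed the threshold (q = 0.0594 in the authors' deposited table). HEMF1 (AT1G03475), the coproporphyrinogen oxidase gene that RefSeq lists as LIN2, had 196.4 FPKM in syd-5 against 143.9 FPKM in WT. PPOX1 (AT4G01690), which makes protoporphyrin IX, had 95.7 FPKM in syd-5 against 67.5 FPKM in WT. The 8 calls of the trunk had q between 0.000351 (HEMC) and 0.0184 (GSA1) in the authors' deposited table.

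In the chlorophyll branch, 9 of 14 genes rose and 0 fell, with a median log2 difference of 0.46. Magnesium chelatase is built of the subunits I, D and H. The I subunit genes both rose: CHLI1 (AT4G18480) had 172.1 FPKM in syd-5 and 125.8 FPKM in WT, and CHLI2 (AT5G45930) had 52.4 FPKM in syd-5 and 31.0 FPKM in WT. CHLH (AT5G13630), the porphyrin-binding subunit also known as GUN5, had 141.6 FPKM in syd-5 against 99.1 FPKM in WT. CHLD (AT1G08520) was at 124.8 FPKM in syd-5 and 97.6 FPKM in WT and just missed the threshold, with q = 0.0506 in the authors' deposited table. GUN4 (AT3G59400), which binds porphyrins and stimulates the chelatase, showed the largest rise of all members. It had 93.6 FPKM in syd-5 against 52.3 FPKM in WT, 1.79-fold higher (log2 0.84), and 94.3% of tested genes had a lower log2 difference. Its gene spans chr3:21948717-21949710 in TAIR10.

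Past the chelatase, the methyltransferase gene CHLM (AT4G25080) had 396.5 FPKM in syd-5 against 237.4 FPKM in WT, a log2 difference of 0.74. CRD1 (AT3G56940), a subunit of the cyclase that closes the fifth ring, had 270.1 FPKM in syd-5 against 202.3 FPKM in WT. DVR (AT5G18660) reduces a vinyl group of the ring, and its transcript had 89.3 FPKM in syd-5 against 51.6 FPKM in WT, a log2 difference of 0.79. These 3 genes all rose. CHLP (AT1G74470), the geranylgeranyl reductase that makes the phytol chain, was the most abundant member in syd-5. It rose to 473.4 FPKM in syd-5, against 287.0 FPKM in WT (log2 0.72).

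The light-dependent protochlorophyllide oxidoreductases were mixed. PORC (AT1G03630) rose to 174.8 FPKM in syd-5, against 126.0 FPKM in WT. PORB (AT4G27440) was at 330.9 FPKM in syd-5 and 265.6 FPKM in WT (q = 0.101 in the authors' deposited table). PORA (AT5G54190), known from dark-grown seedlings, was near the bottom of the range in these light-grown plants, at 0.618 FPKM in syd-5 and 0.515 FPKM in WT. The last steps were not called either. CHLG (AT3G51820), which joins the phytol tail, had 134.9 FPKM in syd-5 and 115.0 FPKM in WT, and CAO (AT1G44446), which makes chlorophyll b, had 22.3 FPKM in syd-5 and 20.3 FPKM in WT. With q of 0.225 for CHLG and 0.507 for CAO in the authors' deposited table, a difference was not shown at these steps. The 9 calls of the branch had q between 0.000351 and 0.0251 (CRD1) in the authors' deposited table.

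**Figure D2:**
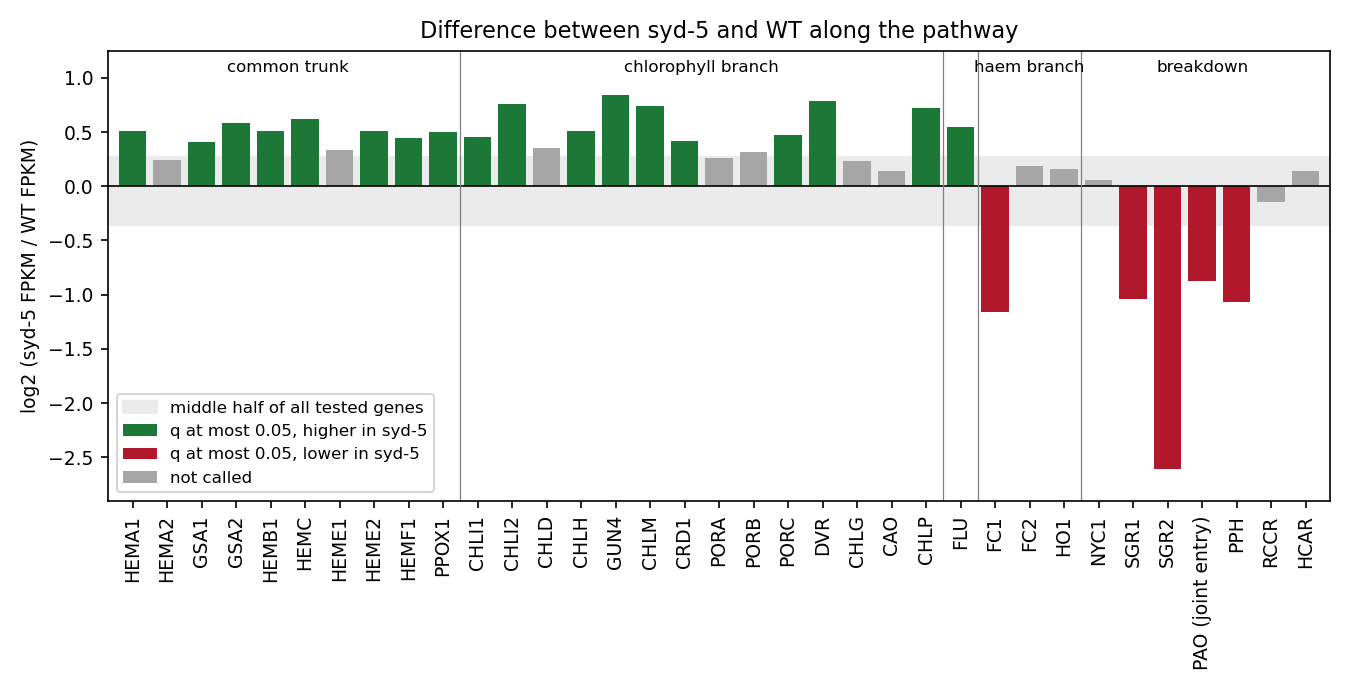
Log2 of syd-5 FPKM over WT FPKM for each member in pathway order; green and red bars have q of at most 0.05, grey bars do not, and the pale band holds the values of all tested genes between their lower quartile of -0.35 and upper quartile of 0.27. Bars of the trunk and chlorophyll branch all point up, with GUN4 at 0.84 as the tallest, and the longest bar of all is SGR2 at -2.61; the unlabelled section holds FLU.

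Trunk and chlorophyll branch together hold 24 genes, of which 17 rose and 7 were not called. In shares, 70.8% rose and 0% fell, beside 14.1% and 18.0% of all tested genes. All 24 had a log2 difference above 0, from 0.14 (CAO) to 0.84 (GUN4), with a median of 0.49. For comparison, 48.0% of all tested genes with a finite ratio, and 56.3% of those at 20 FPKM or more, lay above 0. Summed over the 24 genes, FPKM reached 3703 in syd-5 and 2585 in WT, a ratio of 1.43. The 24 include 23 genes above the median of tested genes in both genotypes, PORA being the exception. A minimum difference of 1.5-fold left 6 of the 17: CHLI2, GUN4, CHLM, DVR, CHLP and HEMC. At that minimum 7.94% of all tested genes were called higher and 13.6% lower in syd-5. Scaling the genotypes to equal FPKM sums lowers every value by 0.13 and gave a median of 0.36, with all 24 still above 0.

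Marker genes of seedling tissues were read beside the synthesis genes. Of 5 mesophyll markers, LHCB1.2 was called higher and 4 (CA1, RBCS1A, RCA and RBCS3B) were not called. Their summed level was 21083 FPKM in syd-5 and 17552 FPKM in WT. Of 7 tested root markers 1 (SHR) was called higher. The 8 listed root markers summed to 27.9 FPKM in syd-5 and 26.6 FPKM in WT. The 4 vascular markers summed to 231.4 FPKM in syd-5 and 165.5 FPKM in WT. Most of this was SUC2, called higher, at 180.1 FPKM in syd-5 and 98.9 FPKM in WT. XCP1 and XCP2 were called lower and APL was not called. The 4 epidermal markers summed to 156.8 FPKM in syd-5 and 177.6 FPKM in WT. TMM and FAMA were called lower, and ATML1 and FDH were not called. None of these markers was listed at 0 in both genotypes. Root markers were low, from 0.410 to 9.59 FPKM in syd-5 and from 0.353 to 11.2 FPKM in WT. How far the markers of each list stand for its tissue was not tested. The part of these marker levels in the rise of the synthesis genes was not tested.

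FLU (AT3G14110), a membrane protein that represses glutamyl-tRNA reductase in the dark, was also called higher. It had 163.2 FPKM in syd-5 and 112.0 FPKM in WT, a log2 difference of 0.54 with q = 0.0249 in the authors' deposited table.

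The haem branch held 0 rises and 1 fall among its 3 genes. FC1 (AT5G26030), the ferrochelatase gene expressed in both green and non-green tissue, fell to 45.9 FPKM in syd-5, against 102.9 FPKM in WT. This is 2.24-fold lower (log2 -1.16), with q = 0.000351 in the authors' deposited table. FC2 (AT2G30390), the ferrochelatase gene of green tissue, was at 109.7 FPKM in syd-5 and 96.2 FPKM in WT and was not called (q = 0.330 in the authors' deposited table). HO1 (AT2G26670), which opens haem on the way to the phytochrome chromophore, was at 119.1 FPKM in syd-5 and 106.5 FPKM in WT and was not called either (q = 0.412 in the authors' deposited table). FC1 was thus the one gene of synthesis, on either side of the branch point, that was called lower. The level of CHLH over that of FC1 was 3.08 in syd-5 and 0.963 in WT, while CHLH over FC2 was 1.29 in syd-5 and 1.03 in WT.

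Of the 6 breakdown genes with their own entry, 3 fell, 0 rose and 3 were not called, with a median log2 difference of -0.59. The 50% that fell stand beside 18.0% of all tested genes and 15.1% of those at 20 FPKM or more. SGR1 (AT4G22920), also NYE1, encodes the STAY-GREEN protein that removes magnesium from chlorophyll a as leaves yellow, and SGR2 (AT4G11910), also NYE2, is its close homologue. SGR1 fell to 10.3 FPKM in syd-5, against 21.2 FPKM in WT, 2.06-fold lower. SGR2 fell to 1.38 FPKM in syd-5, against 8.44 FPKM in WT. At 6.10-fold (log2 -2.61) it was the largest difference of any member, and 2.00% of tested genes had a lower log2 difference. PPH (AT5G13800), the pheophytinase that removes phytol from pheophytin, fell to 38.7 FPKM in syd-5, against 81.0 FPKM in WT, 2.09-fold lower. All 3 had q = 0.000351 in the authors' deposited table. In TAIR10 their genes span chr4:12016525-12018492 (SGR1), chr4:7156252-7158042 (SGR2) and chr5:4451837-4454623 (PPH).

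NYC1, HCAR and RCCR were not called. NYC1 (AT4G13250), a chlorophyll b reductase, was among the most abundant members, at 301.1 FPKM in syd-5 and 289.3 FPKM in WT (q = 0.824 in the authors' deposited table). HCAR (AT1G04620), which completes the return of chlorophyll b to chlorophyll a, had 65.9 FPKM in syd-5 and 59.9 FPKM in WT. RCCR (AT4G37000), the red chlorophyll catabolite reductase, had 67.3 FPKM in syd-5 and 74.3 FPKM in WT. The breakdown members that fell thus act in magnesium removal and in phytol removal from pheophytin. Of the phytol-cutting genes outside the members, CLH1 was called higher and CLH2 lower. At the ring-opening step, the entry that joins PAO (AT3G44880) with AT3G44870 had 53.1 FPKM in syd-5 against 97.1 FPKM in WT at q = 0.000351 in the authors' deposited table, a log2 difference of -0.87. How much of that difference belongs to PAO cannot be told apart. Since NYC1 outweighs the rest, the 6 genes summed to 484.8 FPKM in syd-5 and 534.3 FPKM in WT.

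Of the called members, 6 share their listed span with another gene, and how reads were divided between them is not given. All 6 partners lay below the member in both genotypes. The partner of HEMC, AT5G08270, had 3.75 FPKM in syd-5 and 4.06 FPKM in WT, and that of PPOX1, AT4G01700, had 5.47 FPKM in syd-5 and 6.67 FPKM in WT. NUDT11, beside CHLI2, had 6.70 FPKM in syd-5 and 11.1 FPKM in WT. SIP2;1, beside CRD1, had 21.6 FPKM in syd-5 and 25.3 FPKM in WT, and HDA2, beside FC1, had 12.8 FPKM in syd-5 and 13.9 FPKM in WT. The partner of FLU, AT3G14100, was in proportion the closest to its member, at 74.9 FPKM in syd-5 and 66.8 FPKM in WT. None of the 6 partners was called. Those of HEMC, PPOX1, CHLI2 and CRD1 were lower in syd-5, opposite to the member, and those of FLU and FC1 differed in the member's direction. Whether reads were divided differently in the genotypes was not tested. Without these members, 13 of 28 rose and 3 fell.

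Where a step is encoded by several genes, the isogenes' shares of the family's summed FPKM differed by at most 3.59 percentage points between the genotypes along the chlorophyll path. HEMA1 made up 76.0% of HEMA in syd-5 and 72.5% in WT. CHLI2 made up 23.3% of CHLI in syd-5 and 19.8% in WT. GSA2 and HEME2 each shifted by about as much, to 51.4% of GSA and 52.1% of HEME in syd-5, against 48.4% and 49.0% in WT. The sums of these families were 1.34-fold (HEME) to 1.43-fold (CHLI) higher in syd-5. PORB remained the main POR gene, at 65.4% in syd-5 and 67.7% in WT, with PORC at 34.5% in syd-5 and 32.1% in WT.

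In the 2 families with a member that fell, the shares lay further apart. FC1 contributed 29.5% of ferrochelatase FPKM in syd-5 and 51.7% in WT, 22.2 percentage points less. Ferrochelatase summed to 155.7 FPKM in syd-5 and 199.1 FPKM in WT, 1.28-fold lower. SGR2 contributed 11.8% of the summed FPKM of SGR1 and SGR2 in syd-5 and 28.5% in WT. This pair summed to 11.7 FPKM in syd-5 and 29.7 FPKM in WT, 2.54-fold lower in syd-5. The related gene SGRL (AT1G44000), at 29.2 FPKM in syd-5 and 38.6 FPKM in WT, is not a member and was left out of the pair. Without values per library these shares have no error, and the shifts were not tested.

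**Figure D3:**
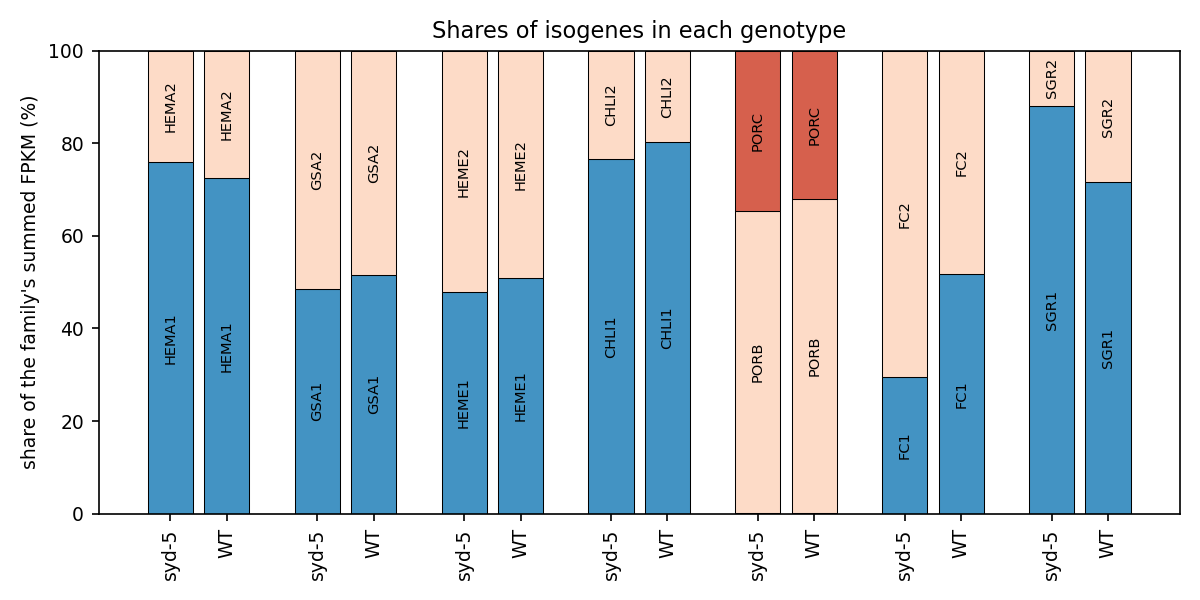
Share of each isogene in the summed FPKM of the members of its family (%), with the syd-5 bar left of the WT bar in each of 7 families. FC1 takes 29.5% in syd-5 and 51.7% in WT; PORA, at 0.122% in syd-5 and 0.131% in WT, is too thin to see.

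Other genes of the pathway were taken from a list of 27, of which 24 had their own entry and 21 were tested. Of these, 3 rose, 5 fell and 13 were not called, with a median log2 difference of 0.12, beside 0.41 for the members. That is 14.3% higher and 23.8% lower, near the 14.1% and 18.0% of all tested genes. Genes for chlorophyllase, which cuts phytol from chlorophyll, moved in opposite directions. CLH1 (AT1G19670) rose to 249.0 FPKM in syd-5, against 105.5 FPKM in WT, and CLH2 (AT5G43860) fell to 1.72 FPKM in syd-5, against 7.36 FPKM in WT. HO3 (AT1G69720), a haem oxygenase gene of low level, fell to 0.255 FPKM in syd-5, against 2.18 FPKM in WT. EMB3143 (AT5G58250), which encodes a further subunit of the cyclase that closes the fifth ring, rose to 225.1 FPKM in syd-5, against 136.6 FPKM in WT.

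The remaining called genes of the list were 1 that rose and 3 that fell. AT2G35260 rose to 270.0 FPKM in syd-5, against 154.0 FPKM in WT. AT4G17840 fell to 42.0 FPKM in syd-5, against 91.3 FPKM in WT. SGRL (AT1G44000) fell to 29.2 FPKM in syd-5, against 38.6 FPKM in WT. TIC55 (AT2G24820), which hydroxylates chlorophyll breakdown products, fell to 68.1 FPKM in syd-5, against 88.4 FPKM in WT. CYP89A9, which acts on the same products, appears only in a joint entry, at 12.6 FPKM in syd-5 and 54.0 FPKM in WT. Uncalled genes included HEMD (AT2G26540), which closes the pyrrole chain into a ring, at 37.6 FPKM in syd-5 and 34.6 FPKM in WT, and PPOX2 (AT5G14220) at 36.7 FPKM in syd-5 and 29.2 FPKM in WT. PPOX2 had q = 0.0574 in the authors' deposited table. HO2, SIRB, UPM1 and HY2, which serve the haem and sirohaem sides, were not called.

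Lists of neighbouring pathways in the chloroplast were also read. In the isoprenoid and the carotenoid list alike, 25% of tested genes were called higher in syd-5. That stands beside 14.1% of all tested genes and 20.5% of those at 20 FPKM or more. Called lower were 0% and 8.33%, beside 18.0% of all tested genes and 15.1% of those at 20 FPKM or more. Of 8 genes of the plastid isoprenoid route that supplies the phytol chain, 2 rose (ISPD and HDS) and 6 were not called, with a median of 0.08. Of 12 tested carotenoid synthesis genes, 3 rose (VDE, BCH1 and Z-ISO), 1 fell (ZEP) and 8 were not called, with a median of 0.13. VDE and ZEP run the xanthophyll cycle in opposite directions. VDE (AT1G08550) had 105.9 FPKM in syd-5 and 72.5 FPKM in WT, while ZEP (AT5G67030) had 27.6 FPKM in syd-5 and 39.4 FPKM in WT. PSY (AT5G17230), the entry enzyme of carotenoid synthesis, was at 128.7 FPKM in syd-5 and 116.3 FPKM in WT and was not called.

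Most genes of the antenna proteins, which bind the finished chlorophyll, rose. Of 20 genes 18 rose and 2 were not called, with a median log2 difference of 1.00 beside 0.49 for trunk and chlorophyll branch. The 90% that rose stand beside 14.1% of all tested genes and 20.5% of those at 20 FPKM or more. LHCB1.4 (AT2G34430), which encodes a protein of the main antenna of photosystem II, rose to 579.9 FPKM in syd-5, against 111.7 FPKM in WT. Of the same antenna, LHCB1.1 (AT1G29920) rose to 182.0 FPKM in syd-5, against 45.7 FPKM in WT, and LHCB1.5 (AT2G34420) to 4626 FPKM in syd-5, against 1389 FPKM in WT. LHCB3 (AT5G54270) rose to 633.5 FPKM in syd-5, against 227.3 FPKM in WT. Summed over the 20 genes, FPKM was 35463 in syd-5 and 17654 in WT. The difference between the lists was not tested, and close copies among the LHCB1 and LHCB2 genes, and spans that LHCB1.5 and LHCB3 share with other genes, make their single values less certain.

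**Figure D4:**
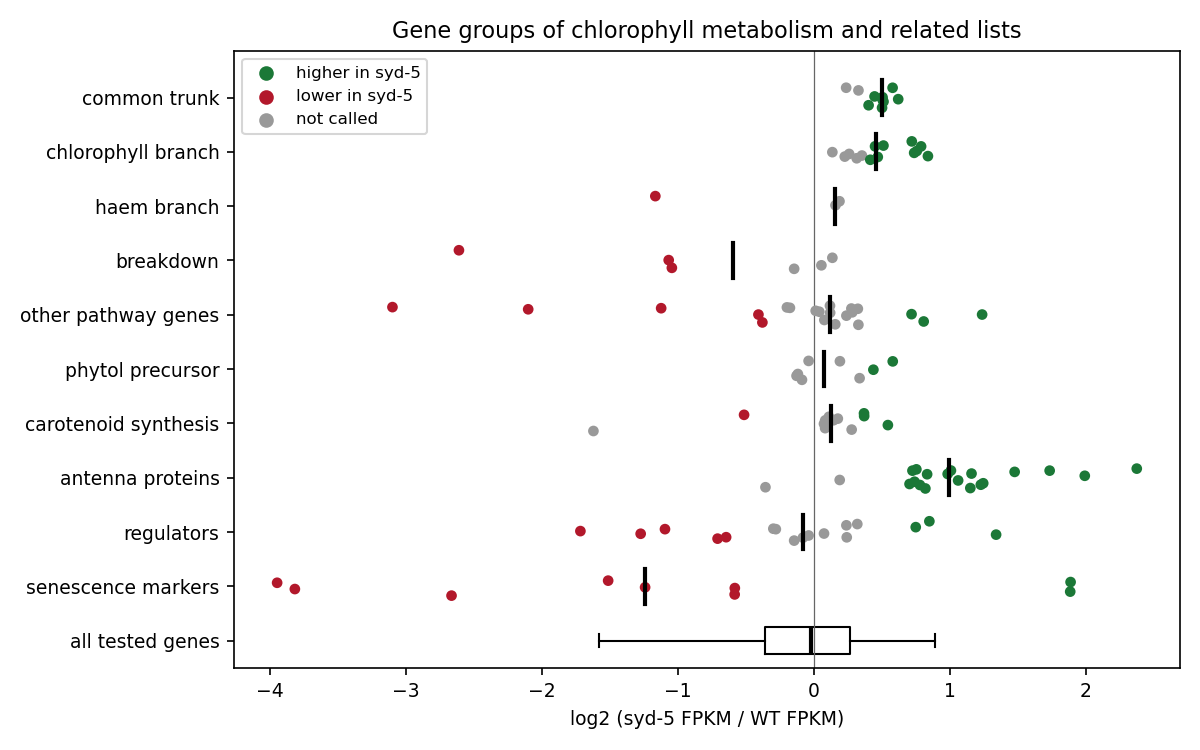
Log2 of syd-5 FPKM over WT FPKM for each tested gene of 4 roles of members and of 6 related lists, with black bars at the medians; the box holds the quartiles of all tested genes and its whiskers the 5th and 95th percentiles. Trunk and chlorophyll branch lie wholly right of 0, antenna genes lie around 1.00 with 1 left of 0, and senescence markers lie mostly left around -1.24.

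Regulators of these genes were split. Of 17 transcription factors, 3 rose, 5 fell and 9 were not called, with a median log2 difference of -0.08. That is 17.6% higher and 29.4% lower, beside 14.1% and 18.0% of all tested genes. ORE1 (AT5G39610), a NAC factor that promotes leaf senescence and activates breakdown genes, fell to 17.9 FPKM in syd-5, against 58.7 FPKM in WT. HYH (AT3G17609), a close relative of HY5 (AT5G11260), fell to 7.17 FPKM in syd-5, against 17.3 FPKM in WT. The phytochrome-interacting factors moved both ways: PIF4 (AT2G43010) rose to 48.2 FPKM in syd-5, against 19.0 FPKM in WT, and PIF3 (AT1G09530) fell to 11.6 FPKM in syd-5, against 24.8 FPKM in WT. The remaining calls were PIF5 and NAC016, which rose, and HY5 and NAC046, which fell.

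HY5 and the GLK factors are known activators of chlorophyll synthesis genes. HY5 was at 16.5 FPKM in syd-5, against 25.8 FPKM in WT. GLK1 (AT2G20570) was at 49.5 FPKM in syd-5 and 60.7 FPKM in WT, and GLK2 (AT5G44190) at 41.9 FPKM in syd-5 and 39.7 FPKM in WT, with q of 0.103 for GLK1 and 0.731 for GLK2 in the authors' deposited table. The other regulators not called were PIF1, GNC, CGA1, FHY3, FAR1, EIN3 and ABI5. The part of any of the regulators in the rise of the synthesis genes was not tested.

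Markers of leaf senescence, the state in which chlorophyll breakdown is most active, were mostly lower. Of 9 tested, 7 fell and 2 rose, with a median log2 difference of -1.24. These are 77.8% lower and 22.2% higher, beside 18.0% and 14.1% of all tested genes. NAP (AT1G69490), a NAC factor of senescing leaves, fell to 3.31 FPKM in syd-5, against 51.0 FPKM in WT. WRKY53 (AT4G23810) fell to 5.65 FPKM in syd-5, against 79.5 FPKM in WT, and SAG13 (AT2G29350) to 0.873 FPKM in syd-5, against 5.52 FPKM in WT. The listed span of WRKY53 is shared with another gene. SEN1 (AT4G35770), known as a dark-inducible gene, rose instead, to 1193 FPKM in syd-5, against 321.9 FPKM in WT. SAG29 was the other that rose, and SAG12, a marker of late senescence, was listed at 0 in both genotypes. The part of these markers' difference in that of SGR1, SGR2 and PPH was not tested.

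**Figure D5:**
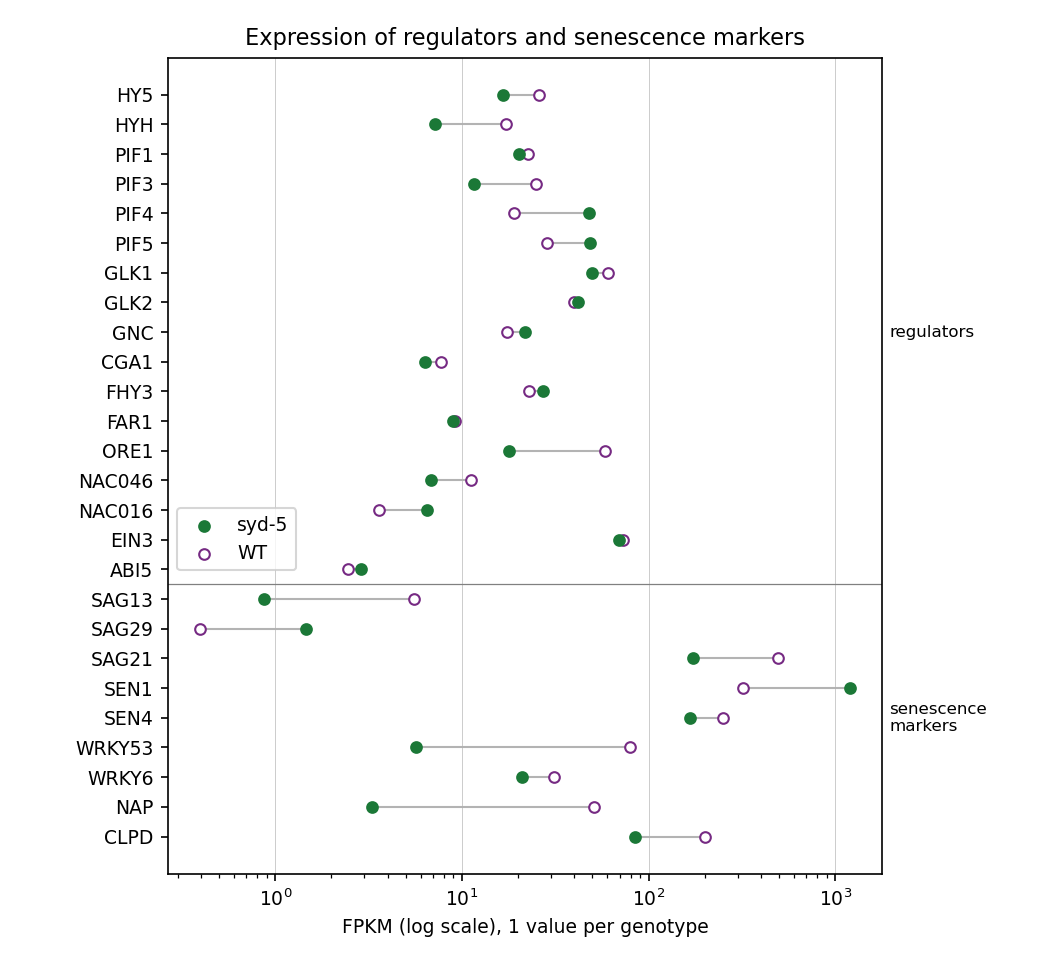
FPKM on a log axis of 17 regulators and of the 9 senescence markers not listed at 0, with a filled point for syd-5 and an open point for WT. NAP and WRKY53 show the widest gaps, with syd-5 at 3.31 and 5.65 FPKM, against 51.0 and 79.5 FPKM in WT, while of the called genes SEN1, SAG29, PIF4, PIF5 and NAC016 have syd-5 to the right.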

How the data were processed

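RNA libraries of syd-5 (3) and WT (3) were compared. The submitters' processing notes name Bowtie2, TopHat2 (version 2.0.4), bedtools and TAIR10, with no role for each, and which program made the table is not stated there. The table as deposited holds 1 value per gene and genotype, read as FPKM. Its header names no unit. For the tested genes with a finite ratio, log2 ratios of these values match the fold column to within 0.001. The p-values and q-values are those the authors deposited. Benjamini-Hochberg adjustment of the p-values of the 19868 tested genes gave the same q to within 5.22e-07. The test statistic is a score of the authors, as deposited, and was not used. Library depth is unknown, so no interval is given.

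Tests on values per library had been foreseen, and as the table holds none, q of at most 0.05 was taken as given. Differences are log2 ratios of FPKM, syd-5 to WT, without a pseudocount. Entries that join several IDs (286) were left out of all counts of members and lists, but kept in the counts over all genes. Spans were taken as shared from 1 base of overlap. Coordinates are the table's, counted from 1. Adding 1 to the table's start gave the start in RefSeq (TAIR10.1) for 12528 genes, and the unchanged start did so for 132. RefSeq was otherwise used for names, and matched 32208 IDs. Neighbours were found from the table's own spans among tested entries, so untested genes between them were passed over. Members and lists were chosen with earlier results of these data known. Every member is named. From the other lists the rule names up to 4 called genes with the smallest q, ties going to the larger fold, and any further gene of a list was picked with its values in view. The alternatives were other q thresholds, adjustment over all listed genes, a minimum fold, a filter at 1 FPKM, a pseudocount of 1, other scalings and leaving out shared spans. Scripts were tested on simulated data (Python 3.11.15, pandas 2.3.3, numpy 2.4.6).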

Additional observations from a re-analysis of the deposited data

How the results depend on the processing

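With a minimum difference of 1.5-fold, 6 members rose in place of 18, all 6 of them in the trunk and chlorophyll branch, where 17 rose without it; over all tested genes 1578 in place of 2806 rose and 2693 in place of 3574 fell. Scaling the genotypes to equal FPKM sums moved the median log2 difference to 0.28 for the members (from 0.41), to 0.36 for trunk and chlorophyll branch (from 0.49) and to -0.72 for breakdown (from -0.59). It left all called members on their side of 0, and turned NYC1, which was not called, to -0.07 (0.06 as deposited). Among the other pathway genes, 5 rose at q of at most 0.10 in place of 3, and 3 in place of 5 fell under each of q of at most 0.01, the 1.5-fold minimum and leaving out shared spans. The number of members that rose was 15 at q of at most 0.01, 20 at 0.10 (HEME1 and CHLD added), 19 with a filter at 1 FPKM (CHLD added), 18 when adjusted over all listed genes and 13 without shared spans, where the counts over all genes were 1850, 3431, 2708, 2436 and 2508. The number that fell was 4 under these settings, except for 3 without shared spans, which leaves out FC1, and for 5 with the joint entry of PAO, an alternative chosen after seeing the data. In the same order, 2648, 4166, 3305, 3228 and 3250 of all tested genes fell, in place of 3574. Tested genes numbered 18385 with the filter and 16696 without shared spans, in place of 19868. No paired analysis was possible because the columns hold 1 combined value per genotype and no replicates, and leaving out each replicate in turn was not possible for the same reason. The planned search of promoters for motifs was not run, as no promoter sequence was used here. The unknown depth and spread between libraries limit what can be said of uncalled genes, of PORA above all, at under 1 FPKM in both genotypes.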

Other observations

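The nearest tested, non-overlapping genes on each side of the members were counted in the same way. Of 68 such neighbours, 14 rose (20.6%), 18 fell (26.5%) and 36 were not called. Over all tested genes 14.1% rose and 18.0% fell. The 36 neighbours of members that rose held 8 that rose and 8 that fell. The 8 neighbours of FC1, SGR1, SGR2 and PPH held 1 that rose, AGL15 beside PPH, and 0 that fell by the authors' q. The 34 members with their own entry lie on all 5 chromosomes, with 9 on chromosome 1, 3 on chromosome 2, 6 on chromosome 3, 8 on chromosome 4 and 8 on chromosome 5.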
